A study of Rattus norvegicus with 8 samples.

Results

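The hypoxia-inducible factors and 4 of their classical target genes were followed in the rat brain after a transient stroke, with and without pretreatment with candesartan, a blocker of the angiotensin AT1 receptor. The genes were Hif1a and Epas1, which encode the factors' regulated subunits, and the targets Vegfa, Slc2a1, Bnip3 and Hmox1. Every probe set whose platform annotation gave a single symbol equal to one of these was taken, which gave 9 probe sets of 6 genes among 15866 probe sets and 10411 genes with a single symbol. Of the 9 probe sets, 8 passed a filter on low signal that kept 10310 of all probe sets and were tested. The ninth, of Hif1a, was too dim.

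Hypoxia-inducible factors are pairs of an oxygen-regulated alpha subunit and a constant beta subunit. With oxygen present, prolyl hydroxylases of the Egln family mark the alpha subunits for the ubiquitin ligase that contains Vhl, and the proteins are degraded; when oxygen is short they accumulate, enter the nucleus and bind a short core sequence beside genes for angiogenesis, glucose uptake, glycolysis and mitophagy. Since the alpha subunits are controlled mainly as proteins, arrays of RNA show the factors' transcripts and their targets, not the factors' activity.

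The rats were male Wistar animals aged 7 weeks and weighing 160 to 200 g. All received subcutaneous injections for 5 days, either of vehicle (0.9% NaCl) or of candesartan at 0.1 mg/kg, given 2 times a day. They then had either a sham operation or a middle cerebral artery occlusion (MCAO) on the right side lasting 90 min, after which blood flow was restored, and RNA came from a segment of the right hemisphere taken 2 h after surgery. The labels do not say whether the 2 h run from the occlusion or from the reperfusion. Each of the 8 arrays carried RNA pooled from 2 rats. Each of the 4 groups, named here by operation and pretreatment (sham vehicle and MCAO vehicle, sham candesartan and MCAO candesartan), had 2 independent pools. The protocol label of MCAO candesartan 2 states no pretreatment, so the group of that array rests on its other labels.

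Signals were on a linear scale, with medians of 1258 to 1378 per array, and the number of arrays limits the precision. The array of MCAO candesartan 2 stood apart, with a mean correlation of 0.951 with the others (0.97 to 0.973 for the rest) and a 3'/5' ratio of hexokinase of 1.54 (2.07 to 2.63 for the rest). Its 3'/5' ratios of Gapdh (1.07) and beta-actin (1.99) lay within the ranges of the rest (1 to 1.14 and 1.57 to 2.03). On the log2 scale the pools of MCAO candesartan lay a median of 0.225 apart, and those of the remaining groups 0.125 to 0.155. Of the listed brain markers, 14 of 15 for neurons and 14 of 15 for astrocytes were on the array. All of these passed the filter on low signal, which asks for at least 2 arrays, and no detection call was used. In bulk tissue, fewer cells of a type and less RNA per cell cannot be told apart.

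Differences were tested with limma on log2(signal + 369.9), a scale that understates the change of dim genes, and p-values were adjusted over all tested probe sets by the Benjamini-Hochberg method, with an adjusted p under 0.05 as the threshold. None of the 8 tested probe sets of these genes passed it in any comparison, against 0.262% of all probe sets for MCAO minus sham in vehicle rats, 0.242% in candesartan rats and 0.417% over both pretreatments. For candesartan minus vehicle the share of all probe sets was 0.0679% after MCAO and 0% after sham surgery, and for the interaction, the difference between the MCAO effects of candesartan and vehicle rats, it was 0.0194%. At an unadjusted p under 0.05 in limma, 1 of the 8 probe sets passed in vehicle rats, 2 in candesartan rats, 2 over both pretreatments, 2 for candesartan after MCAO, 0 for candesartan after sham surgery and 2 for the interaction. Over all probe sets these shares were 7.04%, 12.4%, 9.52%, 13.1%, 3.92% and 8.87%. The smallest unadjusted p-values in limma were those of Hmox1, which was highest in the MCAO vehicle pools, and of Epas1, whose brighter probe set was lowest in the MCAO candesartan pools. The ratio of the highest to the lowest array was largest for the dimmer Epas1 probe set (2.904), before Hmox1 (2.647) and the brighter Epas1 probe set (2.149).

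**Figure D1:**
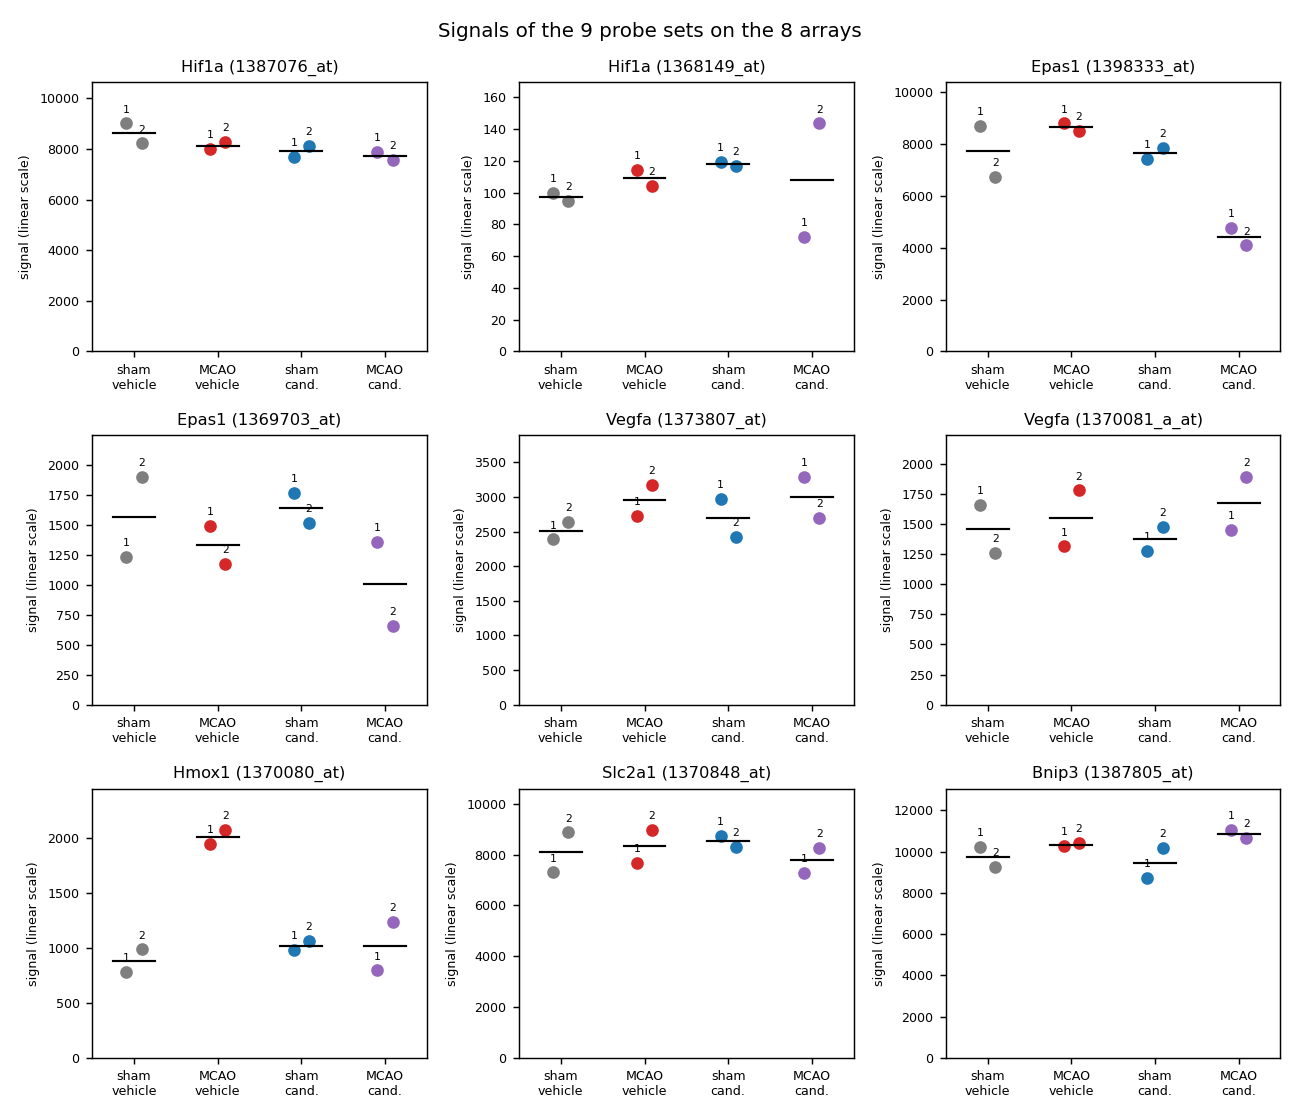
Signals of the 9 probe sets (linear scale, each axis from 0) on the 8 arrays, by group, with the pool number beside each point and a line at the group mean. Hmox1 stands at 1947 and 2078 in the MCAO vehicle pools and between 785 and 1241 elsewhere, and Epas1 (1398333_at) at 4751 and 4086 in the MCAO candesartan pools and between 6726 and 8783 elsewhere.

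Hif1a, the subunit found in nearly all cells, lies on rat chromosome 6. Its probe set 1387076_at read 9016 and 8223 in the sham vehicle pools, 8012 and 8270 after MCAO with vehicle, 7701 and 8141 in the sham candesartan pools, and 7879 and 7579 after MCAO with candesartan. The sham and MCAO pools overlapped under both pretreatments, and the highest array exceeded the lowest 1.19 times. The MCAO effect was -0.08 ± 0.11 (SE, log2) with vehicle (95% interval -0.32 to 0.17, limma adjusted p = 0.949) and -0.03 ± 0.11 with candesartan (-0.28 to 0.21, adjusted p = 0.928). The dimmer Hif1a probe set, 1368149_at, read between 72 and 143.5 on all 8 arrays, below the filter at a signal of 916.3, and was not tested.

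Epas1, which encodes HIF-2 alpha, is known in the brain mainly from endothelial and other perivascular cells, and lies on chromosome 6 as well. Its brighter probe set, 1398333_at, read 8697 and 6726 in the sham vehicle pools, 8783 and 8490 after MCAO with vehicle, 7429 and 7845 in the sham candesartan pools, and 4751 and 4086 after MCAO with candesartan. Both MCAO candesartan pools lay below all 6 other pools, while the sham vehicle pools spanned those of sham candesartan and overlapped those of MCAO vehicle. How many of all probe sets set a group apart in this way was not computed. The group means were 7711 ± 1394, 8637 ± 207, 7637 ± 294 and 4418 ± 470 (SD, n = 2 pools each) in the same order, so the MCAO candesartan mean was 0.579 times its sham mean and 0.512 times the MCAO vehicle mean. The difference of candesartan from vehicle after MCAO was -0.91 ± 0.14 (SE, log2, 95% interval -1.22 to -0.61) and missed the threshold at limma adjusted p = 0.0559, ranking 8 by p among the tested probe sets. It passed in 2 of 16 alternative settings, and over these the limma adjusted p reached 0.577. The settings that passed were quantile normalization (-0.93, limma adjusted p = 0.0378) and the fit without MCAO candesartan 1 (-1.01). In that fit the remaining MCAO candesartan pool is the array that stood apart and is assumed to vary like the other groups. Without MCAO candesartan 2 the difference was -0.81.

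Within candesartan rats the MCAO effect on 1398333_at of Epas1 was -0.74 ± 0.14 (SE, log2, 95% interval -1.05 to -0.44, limma adjusted p = 0.0757). In vehicle rats it was 0.17 ± 0.14 (-0.14 to 0.47, adjusted p = 0.879). The test of the difference between these effects, which share no array, gave -0.91 ± 0.20 (SE, log2) and did not pass either (limma adjusted p = 0.349), ranking 23. Candesartan minus vehicle after sham surgery was -0.0030 (95% interval -0.31 to 0.30), so the sham groups differed by at most 0.31 on the log2 scale within that interval. The effect in candesartan rats passed in 1 of 16 alternative settings and the interaction in 1 of 15, with limma adjusted p up to 0.333 and 0.91. In each case it was the fit without MCAO candesartan 1, with effects of -0.85 and -1.01. Without MCAO candesartan 2 the effect in candesartan rats was -0.64.

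The dimmer Epas1 probe set, 1369703_at, read 1234 and 1900 in the sham vehicle pools, 1487 and 1174 after MCAO with vehicle, 1765 and 1513 in the sham candesartan pools, and 1355 and 654 after MCAO with candesartan. The candesartan groups did not overlap, in the same direction as for the brighter probe set, but MCAO candesartan 1 lay inside the range of the vehicle groups. Its MCAO effect was -0.59 ± 0.25 (SE, log2) with candesartan (limma adjusted p = 0.378) and -0.17 ± 0.25 with vehicle (limma adjusted p = 0.95). Without MCAO candesartan 1, when that group is the single pool at 654, the effect with candesartan was -0.97 (limma adjusted p = 0.0328). Without MCAO candesartan 2 it was -0.22 (limma adjusted p = 0.774). Candesartan minus vehicle after MCAO was -0.35 ± 0.25 (limma adjusted p = 0.584) and turned to 0.027 without MCAO candesartan 2. Over the 8 arrays the Pearson correlation between the Epas1 probe sets was 0.538, given as a description.

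Markers of the vessel cells were set beside Epas1. Of 23 listed endothelial markers 16 were on the array, and 11 of these passed the signal filter. The summed signal of the 16 was 21117 to 23094 in the sham vehicle pools, 22052 to 23988 in the MCAO vehicle pools, 22851 to 25495 in the sham candesartan pools and 23238 to 24518 in the MCAO candesartan pools. Such sums are on the linear scale and weigh bright markers most. The endothelial sums of the MCAO candesartan pools overlapped those of MCAO vehicle and of sham candesartan. Single markers differed both ways. For candesartan minus vehicle after MCAO, Eng gave 0.86 and Slco1a4 0.52, and Flt1 -0.42 and Ocln -0.32 (log2, limma adjusted p = 0.264, 0.25, 0.43 and 0.491). The summed signal of all 11 mural cell markers, of which 6 passed the filter, was 10726 to 10865, 10364 to 11204, 11136 to 12957 and 8878 to 10501 in the same order of groups. The neuron sum was 289440 to 317330 in the MCAO candesartan pools and 239120 to 270570 over the other groups. On MCAO candesartan 2 the astrocyte and oligodendrocyte sums, 314120 and 398100, also exceeded the other groups (at most 283890 and 315080). On MCAO candesartan 1 these sums were 228290 and 307900. The part of all these cell types, and of the wider spread of the MCAO candesartan pools, in the Epas1 values was not tested.

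**Figure D2:**
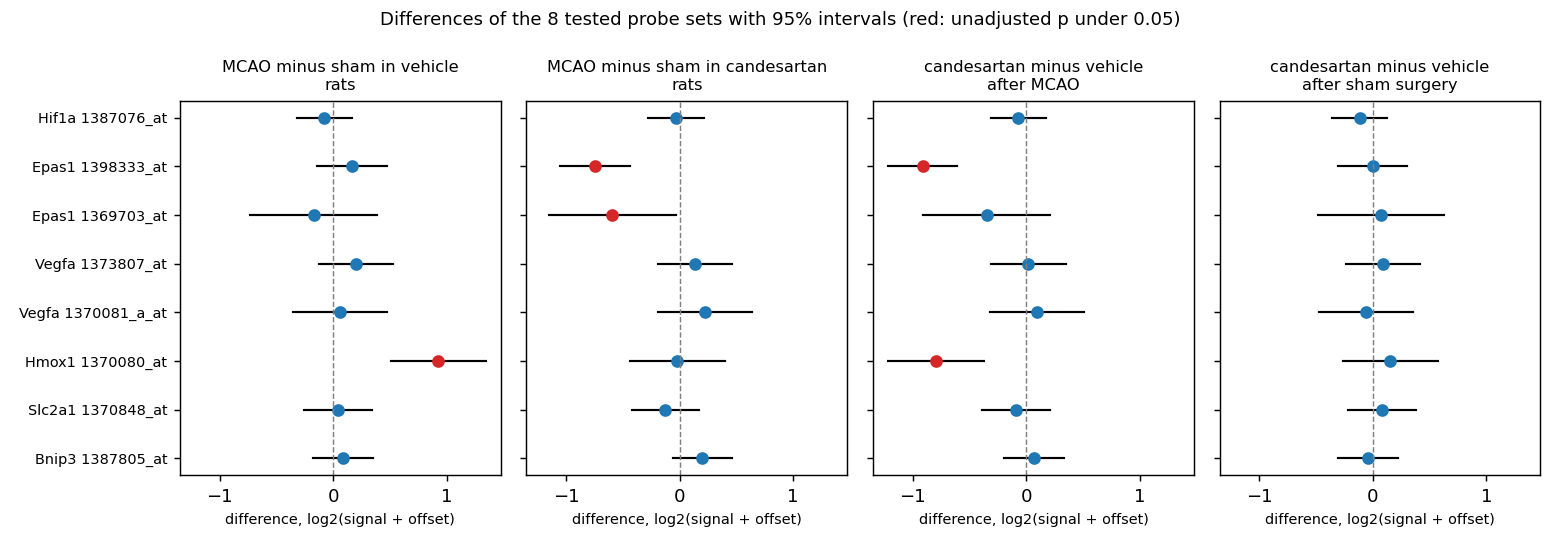
Differences between groups on the log2(signal + 369.9) scale for the 8 tested probe sets in 4 comparisons, with 95% intervals from limma and in red those at an unadjusted p under 0.05. The intervals that stay clear of 0 belong to Hmox1 in vehicle rats (0.51 to 1.35) and after MCAO (-1.22 to -0.38) and to Epas1 in candesartan rats and after MCAO, and none of these differences passed the adjusted threshold.

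Among the targets, Hmox1 encodes heme oxygenase 1, the inducible enzyme that splits heme into biliverdin, iron and carbon monoxide, and it is induced by oxidative stress and heme through Nfe2l2 (NRF2) as well as by hypoxia. The gene lies on chromosome 19. Its probe set 1370080_at read 785 and 987 in the sham vehicle pools, 1947 and 2078 after MCAO with vehicle, 984 and 1061 in the sham candesartan pools, and 797 and 1241 after MCAO with candesartan. Both MCAO vehicle pools lay above all 6 other pools, and the other 3 groups overlapped one another. The share of all probe sets with such a separation of 1 group was not computed. The group means were 886 ± 143, 2012 ± 93.0, 1023 ± 54.8 and 1019 ± 314 (SD, n = 2 pools each) in the same order. The MCAO vehicle mean was 2.27 times its sham mean, and the MCAO candesartan mean was 0.996 times its sham mean.

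On the log2(signal + 369.9) scale the MCAO effect on Hmox1 was 0.93 ± 0.19 (SE, 95% interval 0.51 to 1.35) in vehicle rats, which did not pass the threshold (limma adjusted p = 0.117), at rank 46 by p. In candesartan rats it was -0.02 ± 0.19 (-0.44 to 0.40, adjusted p = 0.974). The difference between these effects was -0.95 ± 0.27 (SE, log2, 95% interval -1.54 to -0.36) and did not pass (limma adjusted p = 0.466). Candesartan minus vehicle after MCAO, which uses the same MCAO arrays, was -0.80 ± 0.19 (SE, log2, limma adjusted p = 0.222), and over both pretreatments the MCAO effect was 0.45 ± 0.13 (SE, log2, limma adjusted p = 0.253). A permutation of pools within pretreatments gave an exact two-sided p of 0.222 for that last value, where the smallest this design allows is 0.0556.

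The Hmox1 effect in vehicle rats passed in 3 of 16 alternative settings, and over these the limma adjusted p reached 0.847. The 3 were the fit of only the groups compared (limma adjusted p = 0.0172) and the fits without MCAO candesartan 1 or 2. None of the 3 changes the effect itself, 0.93. Over both pretreatments the Hmox1 effect passed in 1 of 15 settings, without MCAO candesartan 1 (0.57), with limma adjusted p up to 0.683. Macrophages are a known source of Hmox1. Of 18 microglia and macrophage markers 15 were on the array, and 12 of these passed the signal filter. The 15 summed to 31859 to 31998 in the MCAO vehicle pools, 35507 to 36161 in the sham vehicle pools, 33713 to 39616 in the sham candesartan pools and 32104 to 32552 in the MCAO candesartan pools. Of 13 blood cell markers 8 were on the array, and only 3 of these passed the filter. The sum of the 8 was 91800 to 98795 in MCAO vehicle against 95571 to 106430 in the sham vehicle pools, 96629 to 113880 in the sham candesartan pools and 82332 to 85081 in the MCAO candesartan pools. The part of these cells in the Hmox1 values was not tested.

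None of the differences of the other targets had an unadjusted p under 0.05 in any comparison. Vegfa, on chromosome 9, encodes the main endothelial growth factor of hypoxic tissue and had a pair of probe sets above the filter. Probe set 1373807_at read 2387 and 2635 in the sham vehicle pools, 2729 and 3169 in the MCAO vehicle pools, 2973 and 2427 in the sham candesartan pools, and 3295 and 2701 in the MCAO candesartan pools. The vehicle groups did not overlap, and the candesartan groups did. The MCAO effect was 0.20 ± 0.15 (SE, log2, limma adjusted p = 0.856) with vehicle and 0.13 ± 0.15 (limma adjusted p = 0.742) with candesartan. The 95% intervals of this probe set reached up to 0.53 and 0.46 on the log2 scale.

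Probe set 1370081_a_at of Vegfa read 1661 and 1259 in the sham vehicle pools, 1314 and 1778 in the MCAO vehicle pools, 1276 and 1474 in the sham candesartan pools, and 1451 and 1894 in the MCAO candesartan pools. All groups overlapped between sham and MCAO, with effects of 0.06 ± 0.19 and 0.22 ± 0.19 (SE, log2; limma adjusted p = 0.981 and 0.653) and 95% intervals that reached up to 0.48 and 0.63. The Vegfa probe sets did not follow each other from array to array, with a Pearson correlation of -0.0151 over 8 arrays. The correlation of 1370081_a_at with the dimmer Epas1 probe set was -0.905 over the same arrays. These correlations are descriptions, and the arrays in them share the group structure and the common scaling.

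Slc2a1 encodes GLUT1, the glucose transporter of the blood-brain barrier and of glia, and lies on chromosome 5, and Bnip3, on chromosome 1, encodes a protein of the outer mitochondrial membrane that recruits mitochondria to autophagy. The 250 bases before the start sites of these genes are shown because both windows hold the core to which the factors bind, in RefSeq on build GRCr8, with each ACGTG or GCGTG core in capitals. A core on the opposite strand appears in the printed sequence as CACGT or CACGC. The Slc2a1 window is chr5:138002272-138002521 on the plus strand and the Bnip3 window chr1:203154963-203155212 on the minus strand, both printed 5′ to 3′ in the direction of the gene.
Slc2a1: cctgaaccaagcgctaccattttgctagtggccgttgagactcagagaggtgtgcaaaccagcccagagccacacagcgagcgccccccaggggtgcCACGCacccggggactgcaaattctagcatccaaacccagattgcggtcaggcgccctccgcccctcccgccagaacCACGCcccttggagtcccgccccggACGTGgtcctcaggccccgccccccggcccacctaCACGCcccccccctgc
Bnip3: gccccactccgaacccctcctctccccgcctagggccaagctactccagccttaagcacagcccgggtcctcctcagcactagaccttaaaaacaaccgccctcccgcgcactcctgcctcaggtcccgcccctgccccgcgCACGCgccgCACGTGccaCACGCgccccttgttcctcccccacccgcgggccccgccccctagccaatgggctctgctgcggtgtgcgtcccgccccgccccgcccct
The Slc2a1 window held 1 ACGTG and 3 GCGTG, and the Bnip3 window held 2 ACGTG, which are the strands of 1 palindromic CACGTG, and 2 GCGTG. Searched on both strands, 16.6% of 33469 promoter windows of this length held ACGTG, 25.9% held GCGTG and 36.7% held either, so a match is common. The Hif1a window (chr6:98359648-98359897, plus strand) held 3 ACGTG, of which a pair are the strands of a palindrome, and the Epas1 window and both Vegfa windows held neither core in these 250 bases. A match is a description of the letters, not a bound site.

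Slc2a1 (1370848_at) read 7297 and 8875 in the sham vehicle pools, 7681 and 8982 after MCAO with vehicle, 8730 and 8311 in the sham candesartan pools, and 7293 and 8278 after MCAO with candesartan. The vehicle groups overlapped, and the candesartan groups did not, but the gap between them was smaller than that between the pools of either group. The MCAO effect was 0.04 ± 0.13 (SE, log2, 95% interval -0.25 to 0.34) with vehicle and -0.13 ± 0.13 (-0.42 to 0.17) with candesartan, at limma adjusted p = 0.981 and 0.728.

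Bnip3 (1387805_at) read 10225 and 9240 in the sham vehicle pools, 10265 and 10419 after MCAO with vehicle, 8703 and 10196 in the sham candesartan pools, and 11060 and 10671 after MCAO with candesartan. All 4 MCAO pools lay above all 4 sham pools, though MCAO vehicle 1 exceeded sham vehicle 1 by less than the gap between the sham vehicle pools. Bnip3 was the only one of the 8 tested probe sets with such a separation, which held for 5.22% of all probe sets. The MCAO effect over both pretreatments was 0.14 ± 0.08 (SE, log2, 95% interval -0.04 to 0.33) and did not pass (limma adjusted p = 0.634). The permutation of pools within pretreatments gave an exact two-sided p of 0.0556, the smallest this design allows.

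Separation of single pairs of groups was frequent on these arrays. MCAO and sham pools did not overlap for 3 of the 8 probe sets in vehicle rats (Hmox1, Vegfa 1373807_at and Bnip3, all higher after MCAO), against 45.2% of all probe sets. In candesartan rats they did not overlap for 4 (Bnip3 higher, both Epas1 probe sets and Slc2a1 lower), against 38.2%. After MCAO, candesartan and vehicle pools did not overlap for 4 (Bnip3 higher; Epas1 1398333_at, Hmox1 and Hif1a lower), against 41.8%, and after sham surgery for 1 (Hif1a lower), against 33.8%. With 8 probe sets, these counts do not stand apart from the shares of all probe sets. The median MCAO effect over the 8 probe sets was 0.08 (log2) with vehicle and -0.03 with candesartan, beside 0.01 and -0.03 over all probe sets.

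**Figure D3:**
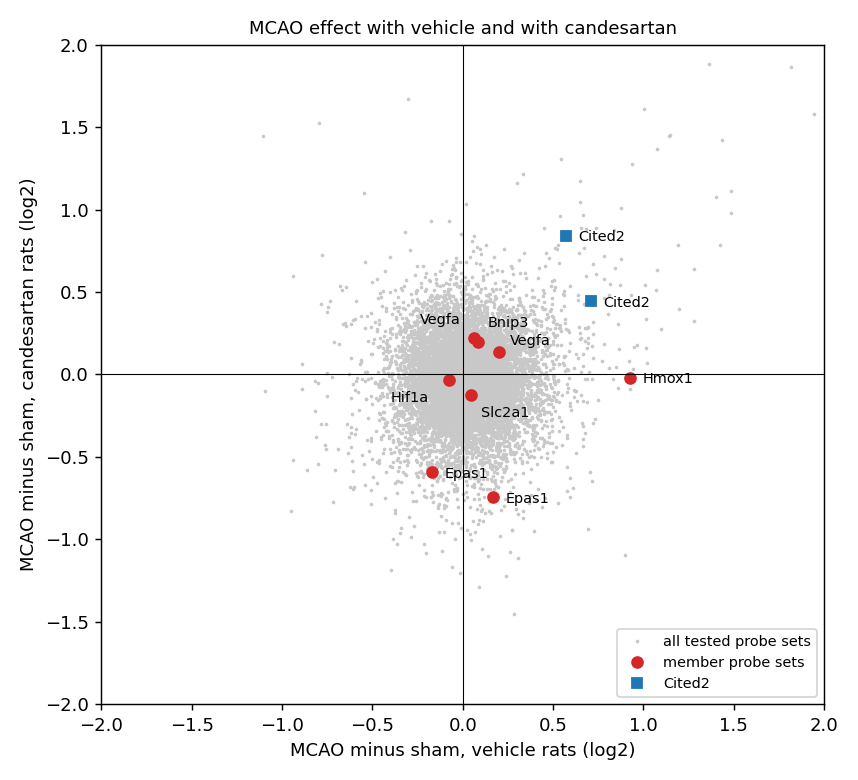
MCAO minus sham on the log2(signal + 369.9) scale in vehicle rats (horizontal) and candesartan rats (vertical) for the 10310 tested probe sets (grey), with the 8 probe sets of these genes in red, both Cited2 probe sets as blue squares, and 6 probe sets lying outside the axes. Hmox1 lies at 0.93 and -0.02, the Epas1 probe sets at 0.17 and -0.74 and at -0.17 and -0.59, and the other 5 red points between -0.13 and 0.22 on both axes.

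Among the other genes of the pathway, Cited2 rose after MCAO. Its product is induced by the factors and competes with HIF-1 alpha for the coactivators p300 and CBP, and so limits the response. Probe set 1367602_at read 4085 and 4626 in the sham vehicle pools, 6265 and 7017 in the MCAO vehicle pools, 3840 and 4167 in the sham candesartan pools, and 6274 and 8866 in the MCAO candesartan pools. Probe set 1367601_at read 2268 and 1972, 3938 and 3462, 2005 and 1807, and 2704 and 2736 in the same order of groups. On both probe sets all 4 MCAO pools lay above all 4 sham pools. Such a separation, in either direction, held for 5.22% of all probe sets.

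The MCAO effect on Cited2 over both pretreatments was 0.71 ± 0.11 (SE, log2, limma adjusted p = 0.0192) on 1367602_at and 0.58 ± 0.09 (limma adjusted p = 0.0215) on 1367601_at, and the exact two-sided permutation p for 1367602_at was 0.0556, the smallest possible. Within single pretreatments neither probe set passed: 1367602_at gave 0.57 ± 0.16 with vehicle (limma adjusted p = 0.379) and 0.84 ± 0.16 with candesartan (adjusted p = 0.0776), and 1367601_at gave 0.71 ± 0.13 (adjusted p = 0.0791) and 0.44 ± 0.13 (adjusted p = 0.26). In vehicle rats both passed when only the groups compared were fitted (limma adjusted p = 0.0456 for 1367602_at and 0.0291 for 1367601_at), and 1367601_at also without MCAO candesartan 1 (0.0499). In candesartan rats 1367602_at passed with the replicate block (limma adjusted p = 0.0458) and without MCAO candesartan 1 (1.08, limma adjusted p = 0.00287). The probe sets ordered the pretreatments differently, and the interaction did not pass on either (adjusted p = 0.724 and 0.683). Each call was lost without the signal filter (limma adjusted p = 0.0664 for both) and when any 1 of sham vehicle 1 or 2, MCAO vehicle 1 or 2 or sham candesartan 1 or 2 was left out, at adjusted p = 0.0712 to 0.135 for 1367602_at and 0.0711 to 0.179 for 1367601_at, with an effect of 0.53 to 0.75. The call on 1367602_at was also lost without the variance trend (limma adjusted p = 0.0566).

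The Cited2 window, chr1:14132053-14132302 on the plus strand of GRCr8 in RefSeq, is shown because Cited2 was the pathway gene that passed the threshold.
Cited2: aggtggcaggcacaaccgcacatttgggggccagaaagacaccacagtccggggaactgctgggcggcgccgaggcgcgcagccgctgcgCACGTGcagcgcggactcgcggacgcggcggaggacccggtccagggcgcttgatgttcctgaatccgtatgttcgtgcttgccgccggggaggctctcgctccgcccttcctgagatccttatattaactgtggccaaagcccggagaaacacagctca
The palindromic CACGTG in capitals, counted as 2 ACGTG since it reads the same on both strands, was its only core match, and it starts 160 bases before the start site.

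The list of HIF subunits and regulators held 27 genes, of which 22 were on the array and 19 were tested, Hif1a and Epas1 among them, each gene by its brightest probe set. Cited2 over both pretreatments was the only call in this list: 1 of 19 rose and 0 fell there, and 0 passed in limma in the other comparisons, with 2 at an unadjusted p under 0.05 in vehicle rats, 5 in candesartan rats, 4 over both pretreatments, 6 for candesartan after MCAO, 1 after sham surgery and 4 for the interaction. Over all probe sets the shares at an unadjusted p under 0.05 were 7.04%, 12.4%, 9.52%, 13.1%, 3.92% and 8.87% in the order of these comparisons. The share called over both pretreatments was 0.417%. The median MCAO effect of the list was -0.07 (log2) with vehicle and 0.01 with candesartan, beside 0.01 and -0.03 over all probe sets. The oxygen sensors and the substrate-binding part of the ubiquitin ligase did not pass: Egln1 gave -0.05 and 0.01 (log2, vehicle then candesartan rats), Egln2 -0.08 and 0.17, Egln3 0.05 and 0.09, and Vhl -0.07 and -0.15, at limma adjusted p of 0.633 or more.

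Arnt2, a beta subunit enriched in neurons, read 6376 and 6464 in the MCAO candesartan pools on 1373315_at and 4325 to 5133 in the other 6. Both MCAO candesartan pools lay above the rest, a separation whose share over all probe sets was not computed. The difference after MCAO, 0.41 ± 0.13 (SE, log2), did not pass (limma adjusted p = 0.257). The dimmer Arnt2 probe set 1370611_at, where the MCAO candesartan pools read 1250 and 1678 and the others 1035 to 1571, overlapped. Bhlhe41, a repressor of the clock family, read 6238 and 5643 in the MCAO candesartan pools, 8590 and 10694 in the MCAO vehicle pools, 8257 and 8159 in the sham vehicle pools and 7472 and 5844 in the sham candesartan pools. Candesartan pools lay below vehicle pools under both operations, and the difference after MCAO was -0.66 ± 0.15 (SE, log2, limma adjusted p = 0.195, or 0.0286 without MCAO candesartan 1). Its relative Bhlhe40 read 1787 and 2047 in the sham vehicle pools and 1464 and 1007 in the MCAO vehicle pools, an effect of -0.52 ± 0.18 (limma adjusted p = 0.508) that was -0.32 without MCAO vehicle 2. Siah1, a ubiquitin ligase that acts on the Egln proteins, read 894 and 503 in the MCAO candesartan pools and 1154 to 1699 elsewhere, a difference of -0.74 ± 0.21 (SE, log2) from MCAO vehicle (limma adjusted p = 0.251). It was -1.01 without MCAO candesartan 1 (limma adjusted p = 0.0176) and -0.47 without MCAO candesartan 2 (limma adjusted p = 0.487). Hsp90ab1, a chaperone that holds the alpha subunits, read 47473 and 62890 in the MCAO candesartan pools and 41096 to 45856 elsewhere. Its MCAO effect in candesartan rats, 0.37 ± 0.14 (SE, log2), did not pass (limma adjusted p = 0.342). It was 0.57 without MCAO candesartan 1 (limma adjusted p = 0.00783), 0.16 without MCAO candesartan 2 and 0.15 under quantile normalization. Elob, an adaptor of the ligase that holds Vhl, gave 0.30 ± 0.13 (SE, log2) for candesartan minus vehicle after MCAO (limma adjusted p = 0.361), or 0.18 without MCAO vehicle 2.

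**Figure D4:**
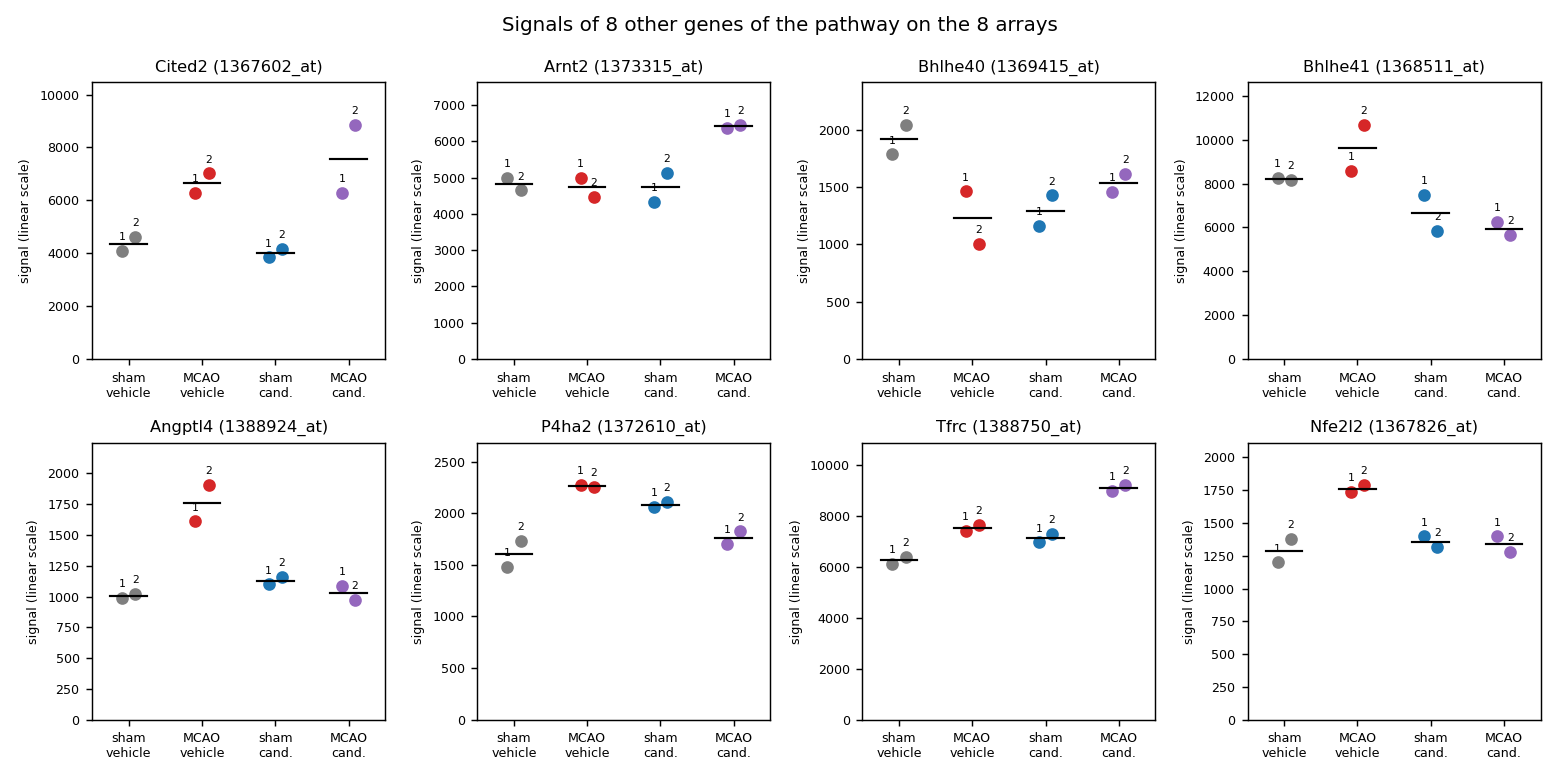
Signals (linear scale, each axis from 0) of 8 other genes of the pathway on the 8 arrays, by group, with the pool number beside each point and a line at the group mean. The Cited2 probe set shown separates all MCAO pools from all sham pools, while Angptl4 reads 1611 and 1904 in the MCAO vehicle pools and 970 to 1160 elsewhere.

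The list of HIF target genes held 54 genes, 48 on the array and 37 tested, Vegfa, Slc2a1, Bnip3 and Hmox1 included. In limma 0 of 37 passed in any comparison, with 8 at an unadjusted p under 0.05 for MCAO in vehicle rats, 3 in candesartan rats, 7 over both pretreatments, 10 for candesartan after MCAO, 1 after sham surgery and 4 for the interaction. Over all probe sets the shares at an unadjusted p under 0.05 were 7.04%, 12.4%, 9.52%, 13.1%, 3.92% and 8.87% in the order of these comparisons. The median MCAO effect of the list was 0.04 (log2) with vehicle and -0.01 with candesartan. The target with the smallest p after Hmox1 in vehicle rats was Angptl4, a secreted inhibitor of lipoprotein lipase, which read 988 and 1020 in the sham vehicle pools, 1611 and 1904 in the MCAO vehicle pools, 1100 and 1160 in the sham candesartan pools, and 1084 and 970 in the MCAO candesartan pools. Its MCAO vehicle pools lay above all others. The share of all probe sets with such a separation was not computed, and the gene was named for its small p. The effect was 0.63 ± 0.16 (SE, log2) with vehicle (limma adjusted p = 0.244) and -0.10 ± 0.16 with candesartan (limma adjusted p = 0.828). The interaction, -0.73 ± 0.22, did not pass (limma adjusted p = 0.466).

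P4ha2, a subunit of the collagen prolyl hydroxylase, read 1483 and 1730 in the sham vehicle pools and 2270 and 2255 in the MCAO vehicle pools, 0.42 ± 0.13 apart (SE, log2, limma adjusted p = 0.476), and 2060 and 2108 in the sham candesartan pools and 1701 and 1824 in the MCAO candesartan pools. Tfrc, the transferrin receptor, read 6130 and 6406, 7421 and 7655, 6974 and 7292, and 8990 and 9220 in the order used above on 1388750_at. All 4 MCAO pools of Tfrc lay above all 4 sham pools there, a separation that held in either direction for 5.22% of all probe sets. The effect over both pretreatments was 0.29 ± 0.08 (SE, log2, limma adjusted p = 0.184), but the dimmer probe set 1371113_a_at gave 0.02 ± 0.15 (limma adjusted p = 0.979). Of the glycolytic targets, Aldoa read 81216 and 94575 in the MCAO candesartan pools and 60963 to 70648 elsewhere, with a MCAO effect of 0.40 ± 0.13 (SE, log2) in candesartan rats (limma adjusted p = 0.278). It was 0.51 without MCAO candesartan 1 (limma adjusted p = 0.0165), 0.29 without MCAO candesartan 2 and 0.21 under quantile normalization (limma adjusted p = 0.436). Aldoc, an aldolase of astrocytes, read 40444 and 67315 in the MCAO candesartan pools and 37103 to 44492 elsewhere. Only MCAO candesartan 2 lay above the rest. Candesartan minus vehicle after MCAO was 0.48 ± 0.19 for Aldoc (SE, log2, limma adjusted p = 0.334). Leaving out MCAO candesartan 2 gave 0.12, and leaving out MCAO candesartan 1 gave 0.85 (limma adjusted p = 0.0017). Ldha gave -0.11 and 0.27 and Pgk1 0.14 and -0.19 (log2, MCAO effect in vehicle then candesartan rats), none of which passed. Pfkfb3 gave 0.48 and 0.39, P4ha1 0.47 and 0.35 and Kdm3a 0.47 and 0.17 in the same order. Over both pretreatments these did not pass either (limma adjusted p = 0.246, 0.239 and 0.426). In the whole target list 22 of 37 MCAO effects lay above 0 with vehicle and 18 of 37 with candesartan.

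Cp, which encodes the copper ferroxidase ceruloplasmin, read 1164 and 1105 in the sham vehicle pools, 1102 and 1254 in the MCAO vehicle pools, 1454 and 980 in the sham candesartan pools, and 816 and 171 in the MCAO candesartan pools. Both MCAO candesartan pools lay below the other 6, a separation whose share over all probe sets was not computed, and they lay far from each other. The MCAO effect on Cp in candesartan rats was -0.97 ± 0.31 (SE, log2, limma adjusted p = 0.292), and candesartan minus vehicle after MCAO was -0.95 ± 0.31 (SE, log2, limma adjusted p = 0.275). The first was -1.54 without MCAO candesartan 1 (limma adjusted p = 0.00563) and -0.40 without MCAO candesartan 2 (limma adjusted p = 0.539). Cxcl12, a chemokine, read 4425 and 3998 in the sham vehicle pools, 3463 and 2623 in the MCAO vehicle pools, 4027 and 3531 in the sham candesartan pools, and 3384 and 4241 in the MCAO candesartan pools. Its MCAO vehicle pools lay below its sham vehicle pools, at -0.43 ± 0.16 (SE, log2, limma adjusted p = 0.559), or -0.26 without MCAO vehicle 2. Of the other targets named by their p, the glycolytic Eno1 and Tpi1 gave -0.18 and -0.13 with vehicle and the oxidase Ero1a -0.25 with candesartan (log2, MCAO effect), at limma adjusted p of 0.86, 0.895 and 0.453.

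Of 14 VEGF ligands and receptors, 12 were on the array and 7 were tested, and 0 passed in limma in any comparison, with 1 at an unadjusted p under 0.05 in each of vehicle rats, candesartan rats and the interaction and 0 in the rest. Vegfa was among the 7 tested. The shares of all probe sets in vehicle rats, in candesartan rats and for the interaction were 7.04%, 12.4% and 8.87%. The receptor Kdr gave MCAO effects of 0.01 and 0.002 (log2) in vehicle and candesartan rats and the decoy receptor Flt1 0.19 and -0.39 (limma adjusted p = 0.931 and 0.492). Tie1, an endothelial receptor kinase, read 581 and 473 in the sham vehicle pools and 1099 and 866 in the MCAO vehicle pools, 0.59 ± 0.21 apart (SE, log2, limma adjusted p = 0.551). The ligand Vegfb read 1778 and 2495 in the MCAO candesartan pools and 1683 and 1284 in the sham candesartan pools, 0.43 ± 0.17 apart (SE, log2, limma adjusted p = 0.359). This was 0.64 without MCAO candesartan 1 (limma adjusted p = 0.0489) and 0.22 without MCAO candesartan 2. Of 22 genes of heme breakdown and the NRF2 response, 15 were on the array and 11 tested, and 0 passed in limma, with 2 at an unadjusted p under 0.05 in vehicle rats, 1 in candesartan rats, 2 over both pretreatments, 1 for candesartan after MCAO, 0 after sham surgery and 1 for the interaction. Hmox1 itself was in this list. It was 1 of the 2 in vehicle rats and the only 1 for candesartan after MCAO and for the interaction. The shares of all probe sets were 7.04%, 12.4%, 9.52%, 13.1%, 3.92% and 8.87% in the order of these comparisons. The median MCAO effect of that list, Hmox1 included, was 0.18 (log2) with vehicle and -0.02 with candesartan, with 8 of 11 above 0 and 4 of 11 above 0.

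Nfe2l2, which encodes NRF2 itself, read 1200 and 1376 in the sham vehicle pools, 1734 and 1787 in the MCAO vehicle pools, 1397 and 1316 in the sham candesartan pools, and 1397 and 1279 in the MCAO candesartan pools. Its MCAO vehicle pools lay above all others, with an effect of 0.36 ± 0.15 (SE, log2) that did not pass (limma adjusted p = 0.631). The gene was named for its small p in this comparison, and the share of all probe sets with such a separation was not computed. Txn1, which encodes thioredoxin, read 21161 and 25972 in the MCAO candesartan pools and 17871 to 20362 elsewhere, an MCAO effect of 0.29 ± 0.13 (SE, log2) in candesartan rats (limma adjusted p = 0.388). That effect was 0.44 without MCAO candesartan 1 (limma adjusted p = 0.0478) and 0.15 without MCAO candesartan 2. The constitutive heme oxygenase Hmox2 gave MCAO effects of -0.08 and 0.13 (log2) in vehicle and candesartan rats. Among 15 relatives of Bnip3 and mitophagy genes, 12 were on the array and 11 tested, and 0 passed in limma, with 0 at an unadjusted p under 0.05 in vehicle rats, 1 in candesartan rats, 1 over both pretreatments, 2 for candesartan after MCAO, and 0 after sham surgery and for the interaction. Bnip3 itself was among the 11 tested. The shares of all probe sets were 7.04%, 12.4%, 9.52%, 13.1%, 3.92% and 8.87% in the order of these comparisons. Bnip3l, the closest relative of Bnip3, gave 0.03 and -0.16 (log2, MCAO effect in vehicle and candesartan rats). Fundc1, another mitophagy receptor, read 1054 and 539 in the MCAO candesartan pools and 1325 to 1879 elsewhere, with an effect of -0.74 ± 0.21 (SE, log2) in candesartan rats (limma adjusted p = 0.249). It was -1.07 without MCAO candesartan 1 (limma adjusted p = 0.00971) and -0.42 without MCAO candesartan 2 (limma adjusted p = 0.452). Gabarapl1, which encodes an autophagosome protein, gave 0.31 ± 0.13 (SE, log2) for candesartan minus vehicle after MCAO (limma adjusted p = 0.357), or 0.18 without MCAO candesartan 2.

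For each gene the named genes most like it across the 8 arrays were listed by Pearson correlation of the log2 values, as a description over about 8670 named probe sets. Epas1 (1398333_at) was most like Selenon (r = 0.969), Ap3d1 (0.961) and Kcnc2 (0.957), and 0.554% of the probe sets exceeded r = 0.9 with it. Hmox1 was most like Medag (0.957), Fam210a (0.949) and Aspa (0.94), with 0.254% above 0.9. Of these, Aspa, an enzyme of oligodendrocytes, read 1920 and 2049 in the sham vehicle pools, 3089 and 3191 in the MCAO vehicle pools, 2256 and 2596 in the sham candesartan pools, and 2118 and 2337 in the MCAO candesartan pools (it was picked for this likeness). Hif1a was most like Nme2 (0.985), Pdhb (0.958) and Btbd1 (0.939), Vegfa (1373807_at) like Cdk20 (0.959), Borcs8 (0.953) and Lpcat4 (0.947), Slc2a1 like Htr5a (0.969), Kcnk6 (0.94) and Pigt (0.936), and Bnip3 like Sf3b1 (0.97), Smim29 (0.936) and Atrnl1 (0.934). The share of probe sets above 0.9 was 0.0923% to 0.127% for these 4.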

How the data were processed

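RNA from 8 pools of 2 rats was hybridised to Affymetrix RAE 230A arrays. The deposited table holds linear signal intensities per probe set, made by the authors with GCOS, the Affymetrix software, per the submitters' processing notes; no GCOS settings were in the sources used here. Trimmed means (2%) differed by 0.000426%, so the deposited scaling was kept.

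An offset of 369.9 (20th percentile) was added before log2. Probe sets over 916.3 (40th percentile) on at least 2 arrays were tested. All 4 groups were fitted in limma 3.58.1 (R 4.3.3) with a variance trend and 4 residual degrees of freedom, with 6 contrasts. With 2 pools against 2 an exact test cannot go below p = 0.333, so p-values rest on limma's pooled spread. The 57 controls were left out. Lists used each gene's brightest probe set. The method was run on simulated data with the same spread in all groups, so it does not cover the wider spread of the MCAO candesartan pools. Alternatives covered scaling, offset, filter, variance trend, groups fitted, a replicate block and each array left out.

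The members and lists were chosen with earlier results of these data known. Named are all members, from each pathway list the genes called or with the smallest p each way (up to 3, those with no unadjusted p under 0.05 not all by name), and, chosen with values seen, Egln1 to Egln3, Vhl, Pgk1, Pfkfb3, P4ha1, Kdm3a, Bnip3l and second probe sets. Marker lists are given as sums. The replicate numbers did not pair the pools (correlations of deviations -0.0951 to 0.137 over 6 pairs of groups). Promoter windows are RefSeq's, on GRCr8; no window of Hmox1 was used here.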

Additional observations from a re-analysis of the deposited data

How the results depend on the processing

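Scaling, filter and fit moved the counts, and scaling also moved some effects. Under quantile normalization, candesartan minus vehicle after MCAO (log2) went from 0.36 to 0.030 for Hsp90ab1 and from 0.46 to 0.15 for Aldoa. For the 8 probe sets of the hypoxia genes, 1 was called for candesartan after MCAO under quantile normalization (Epas1) and 1 for MCAO in vehicle rats when only the groups compared were fitted (Hmox1). Leaving out each array in turn gave 0 to 1 called for MCAO in vehicle rats, 0 to 2 in candesartan rats, and 0 to 1 over both pretreatments, for candesartan after MCAO and for the interaction, with the higher counts without MCAO candesartan 1. Over all probe sets, leaving out arrays gave 7 to 43 calls for MCAO in vehicle rats, 5 to 835 in candesartan rats, 21 to 389 over both pretreatments, 0 to 986 for candesartan after MCAO and 0 to 296 for the interaction, again highest without MCAO candesartan 1. The cause was not tested.

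Without the signal filter the counts of all called were 12 (MCAO in vehicle rats), 16 (candesartan rats), 0 (candesartan after MCAO) and 0 (interaction). The interaction also had 0 with the stricter filter and 0 with the replicate block. Candesartan after MCAO had 2 with the offset at the 10th percentile, 4 without the variance trend, 4 with the replicate block and 0 with only the groups compared, which also gave 93 for MCAO in vehicle rats and 11 in candesartan rats. The block changed no call of a hypoxia gene; it brought Cited2 (1367602_at) in candesartan rats to adjusted p = 0.0458.

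Signs turned for differences that were not called, among them the -0.35 of Epas1 1369703_at for candesartan after MCAO. Hmox1 in candesartan rats was 0.0485 under quantile normalization and 0.0064 with median-centred arrays, Epas1 (1398333_at) after sham surgery 0.036 and the Hif1a interaction -0.012 under quantile normalization. With arrays left out the ranges that crossed 0 (log2) were, for MCAO in vehicle rats, Epas1 1369703_at -0.42 to 0.078, Epas1 1398333_at -0.0098 to 0.34, Vegfa 1370081_a_at -0.11 to 0.24 and Slc2a1 -0.092 to 0.18; in candesartan rats, Hmox1 -0.25 to 0.21 and Hif1a -0.072 to 0.0048; over both, Slc2a1 -0.11 to 0.026; for candesartan after MCAO, Epas1 1369703_at -0.72 to 0.027, Vegfa 1370081_a_at -0.082 to 0.27, Vegfa 1373807_at -0.11 to 0.15 and Slc2a1 -0.20 to 0.016; after sham surgery, Epas1 1369703_at -0.18 to 0.32, Epas1 1398333_at -0.18 to 0.17, Vegfa 1370081_a_at -0.22 to 0.10, Vegfa 1373807_at -0.041 to 0.22, Slc2a1 -0.057 to 0.21 and Bnip3 -0.15 to 0.066; and for the interaction, Vegfa 1370081_a_at -0.019 to 0.33, Vegfa 1373807_at -0.20 to 0.060 and Hif1a -0.019 to 0.11. With 2 pools a group, signal over background limits the dim probe sets, of which Hif1a 1368149_at had no test.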
